A study of Homo sapiens with 4 samples.

Results

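Vimentin, nestin and 8 keratins were followed in PC14, an established human cell line of non-small-cell lung cancer, across 4 sorted populations. The genes were VIM, NES, KRT7, KRT8, KRT18, KRT19, KRT10, KRT23, KRT80 and KRT81, and every probe set that the platform annotation pairs with one of these symbols was taken. This gave 9 of the 10 genes and 17 of the 54675 probe sets on the array. KRT81 was not analysed here. Total RNA of each subpopulation was hybridised to 1 biotin-labelled Affymetrix array. Cells were first sorted by fluorescence for E-cadherin, into high (E+) and low (E-) cells. Each was then sorted into CD133-high (CD133+) and CD133-low (CD133-) cells with a lentivirus that carries GFP, a fluorescent protein, under the P1 promoter of CD133. The groups are therefore E+CD133+, E-CD133+, E+CD133- and E-CD133- cells, all from the same line and with no drug or other agent named in the labels, and CD133 status rests on the reporter, not on the protein. With 1 array per subpopulation no difference has a replicate check, and precision is limited by how few arrays there are.

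Intermediate filaments are rope-like cytoskeletal polymers whose subunits depend on the cell type. Keratins form obligate pairs of a type I chain, such as KRT18, KRT19, KRT10 or KRT23, with a type II chain, such as KRT7, KRT8, KRT80 or KRT81, and KRT8 with KRT18 is the characteristic pair of simple epithelia. Vimentin is a type III chain of mesenchymal cells that carcinoma cells often gain in the epithelial-mesenchymal transition, in which E-cadherin is lost, and nestin is a large chain of progenitor cells that assembles with vimentin.

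The promoters of VIM and KRT10 are shown because these genes had, respectively, the widest range over the arrays and 3 probe sets with the same order of the CD133 groups. Of the members, 4 were in the RefSeq promoter table (KRT10, KRT8, NES and VIM; assembly GRCh38.p14). The 250 bases before each start are given 5′ to 3′ on the gene's strand, at chr10:17227991-17228240 (plus strand) for VIM and chr17:40822615-40822864 (minus strand) for KRT10, and capitals mark the motif found.
VIM: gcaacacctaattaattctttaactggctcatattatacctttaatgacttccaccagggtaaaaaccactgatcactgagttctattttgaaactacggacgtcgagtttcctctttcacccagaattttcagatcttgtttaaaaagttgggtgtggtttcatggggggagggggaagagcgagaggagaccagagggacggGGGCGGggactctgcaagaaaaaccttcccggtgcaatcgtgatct
KRT10: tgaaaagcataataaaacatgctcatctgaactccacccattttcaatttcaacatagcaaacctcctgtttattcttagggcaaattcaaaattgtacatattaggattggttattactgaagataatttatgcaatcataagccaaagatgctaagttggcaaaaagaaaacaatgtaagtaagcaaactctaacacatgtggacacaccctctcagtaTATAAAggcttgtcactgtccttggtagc
The motifs below were searched on both strands, and no match overlapped another in these windows: the GC box GGGCGG, the TATA box TATAAA and the E-box CACCTG that ZEB and SNAI factors can bind. The VIM window held 1 GC box, no TATA box and no such E-box. The KRT10 window held 1 TATA box, no GC box and no such E-box. Over 35116 windows of the same length, 42.6% held the GC box, 10.7% the TATA box and 17.5% the E-box, so each match is a description of these letters only.

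Signals are MAS5 intensities on a linear scale, and 4 values given in a row are always in the order E+CD133+, E-CD133+, E+CD133-, E-CD133-. The table had no detection calls, so the 50th percentile of each array, 53.7 to 60.3 signal units, served as a floor, and lower signals were set to it. Of the 17 probe sets, 8 of 5 genes (VIM, KRT7, KRT8, KRT18 and KRT10) exceeded the floor on 1 array or more, 7 did so on all 4, and 9 lay below it on all 4. Probe sets of different genes differ in sensitivity, so levels are compared only within a probe set. Apart from the KRT7 set, the probe sets above the floor carry the _s_ or _x_ mark of sequence shared with other transcripts. RefSeq also lists 52 loci named as pseudogenes of KRT8 and 68 of KRT18, so the source of their signals is uncertain.

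**Figure D1:**
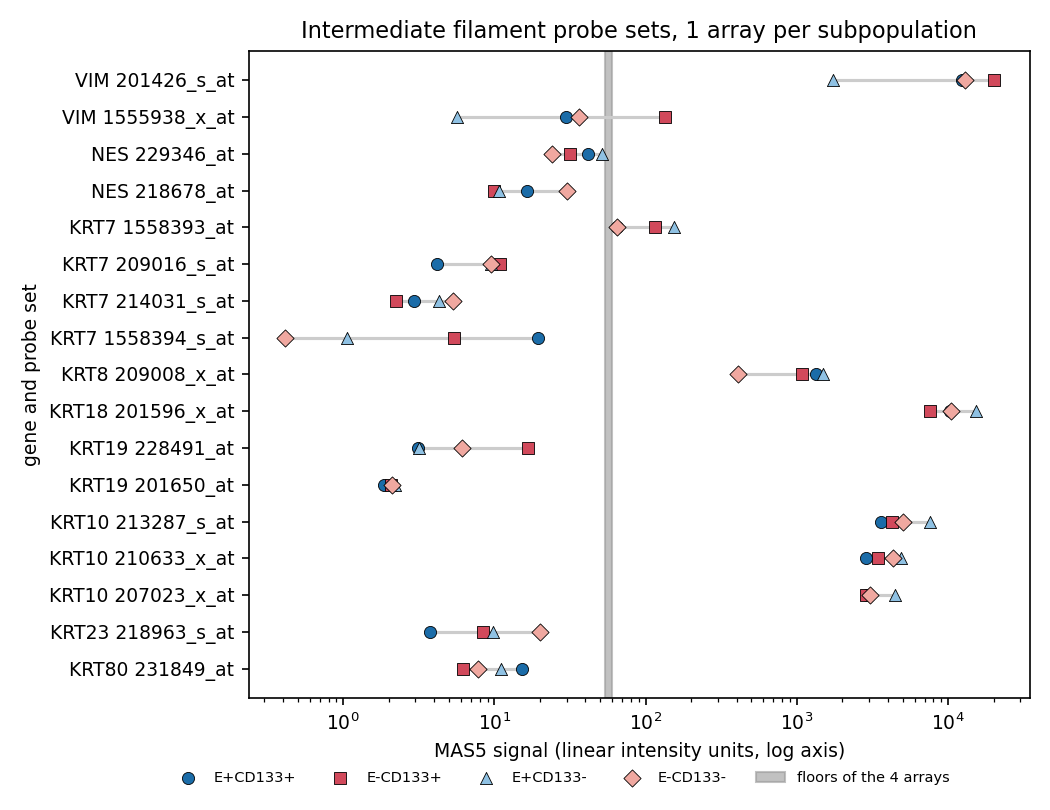
MAS5 signal (linear intensity units, log axis) of the 17 member probe sets, with 1 point per array and the grey band marking the floors of the 4 arrays. The brighter VIM probe set ran from 1740.2 on the E+CD133- array to 20200.2 on the E-CD133+ array, and both NES, both KRT19, the KRT23 and the KRT80 probe sets lay left of the band on all 4 arrays.

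VIM encodes vimentin. Its brighter probe set read 12447.9 in E+CD133+ cells, 20200.2 in E-CD133+ cells, 1740.2 in E+CD133- cells and 12937.9 in E-CD133- cells. The E+CD133- array stood far below the other 3, which lay within a much narrower span, and both E- arrays lay above both E+ arrays, the lower E- and the higher E+ value being close together. In E-cadherin-low over E-cadherin-high cells the signal was 7.43-fold in CD133- cells (log2 ratio 2.89) and 1.62-fold in CD133+ cells (log2 ratio 0.70). In CD133+ over CD133- cells it was 7.15-fold in E+ cells (log2 ratio 2.84) and 1.56-fold in E- cells (log2 ratio 0.64). The E-cadherin ratio in CD133- cells exceeded that in CD133+ cells by 2.20 on the log2 scale. Among the 22798 probe sets above the floor on all 4 arrays, 9 had an E-cadherin ratio in CD133- cells at least as high as VIM and 14 had a CD133 ratio in E+ cells at least as high, VIM itself included in both counts. Under 5 other settings of scaling and floor the ratios were 2.85 to 2.90, 0.53 to 0.78, 2.84 to 2.94 and 0.56 to 0.80 in the same order as above. All 4 signals lay far above every floor, so only quantile scaling and equal array medians could change these ratios.

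A second, dimmer VIM probe set read 29.6, 134.9, 5.67 and 36.0 in the same order of arrays. It was above the floor in E-CD133+ cells alone, which were also highest for the brighter probe set. Its E-cadherin ratio in CD133+ cells was at least 2.51-fold and its CD133 ratio in E- cells at least 2.36-fold, and the other pairs had both arrays at the floor. RNA was measured in bulk, so a smaller share of vimentin-rich cells and less VIM RNA per cell cannot be told apart.

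KRT8, the type II chain of simple epithelia, had 1 probe set. It read 1334.3 in E+CD133+ cells, 1080.6 in E-CD133+ cells, 1493.4 in E+CD133- cells and 405.9 in E-CD133- cells. The E-CD133- array was low and the other 3 were near each other, with both E- arrays below both E+ arrays. In CD133- cells the E-cadherin-low signal was 3.68-fold lower (log2 ratio -1.88), and in CD133+ cells 1.23-fold lower (log2 ratio -0.30). In E- cells CD133+ was 2.66-fold higher (log2 ratio 1.41), against 1.12-fold lower in E+ cells (log2 ratio -0.16). The array that was low for KRT8 was thus E-CD133-, whereas the array that was low for VIM was E+CD133-. The E-cadherin ratio in CD133- cells was at least as low in 53 of the 22798 probe sets, KRT8 included.

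KRT18 pairs with KRT8 in those filaments. Its probe set read 10295.2 in E+CD133+ cells, 7605.1 in E-CD133+ cells, 15305.6 in E+CD133- cells and 10434.2 in E-CD133- cells. The range over the arrays was 2.01-fold, and the E-CD133- value lay close to the E+CD133+ value. The E-cadherin-low signal was 1.35-fold lower in CD133+ cells and 1.47-fold lower in CD133- cells. The CD133+ signal was 1.49-fold lower in E+ cells and 1.37-fold lower in E- cells, so that no pair passed 2-fold and KRT18 did not share the low E-CD133- value of KRT8. With quantile scaling or equal array medians, the groups of KRT18 separated by E-cadherin instead of CD133.

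KRT10 is a type I keratin of differentiated squamous cells and had 3 probe sets. The brightest read 3605.7, 4275.5, 7556.0 and 5063.3 in E+CD133+, E-CD133+, E+CD133- and E-CD133- cells. The second read 2874.7, 3453.9, 4890.0 and 4294.0, and the third read 2893.5, 2866.6, 4433.9 and 3061.4. On each, both CD133+ arrays lay below both CD133- arrays, and the E+CD133- array was highest. In E+ cells CD133+ was 2.10-, 1.70- and 1.53-fold lower, and in E- cells 1.18-, 1.24- and 1.07-fold lower. With equal array medians the third no longer separated the CD133 groups, whereas the other 2 did under each scaling tried.

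KRT7, a type II keratin of simple epithelia and many lung adenocarcinomas, was near the floor. Its brightest probe set read 64.3 in E+CD133+ cells, 115.7 in E-CD133+ cells, 154.2 in E+CD133- cells and 64.3 in E-CD133- cells. The E+CD133+ and E-CD133- arrays gave the same signal, and the E-cadherin ratio was 1.80-fold higher in CD133+ cells and 2.40-fold lower in CD133- cells. With the floor at the 65th percentile these log2 ratios became 0.0 and -0.06, so the pattern rests on signals close to the floor. The other 3 KRT7 probe sets stayed below the floor on each array, with at most 19.5 signal units.

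The brighter NES probe set read 41.6, 31.8, 51.2 and 24.0 and the other read 16.3, 9.91, 10.7 and 30.0 in E+CD133+, E-CD133+, E+CD133- and E-CD133- cells. All 8 NES signals were below the floor, so no ratio is given and the arrays with the most VIM signal had no NES signal above it. KRT19, the smallest keratin and a partner of KRT8, had signals of at most 16.7 on one probe set and 2.21 on the other. KRT23, a type I keratin, read at most 20.0, and KRT80, a type II keratin, at most 15.1. A signal below the floor does not show that a transcript is absent.

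In the E-cadherin comparison 0 of the 8 probe sets above the floor on at least 1 array were at least 2-fold higher in both CD133 states, against 0.384% of 32552 probe sets, and 0 were lower, against 0.402%. In the CD133 comparison 0 were higher, against 1.85%, and 0 were lower, against 0.952%. Within a comparison the pairs have no array in common, whereas the E-cadherin and CD133 comparisons use the same 4 arrays. Taken pair by pair, the E-cadherin comparison in CD133+ cells had 1 member at least 2-fold higher (the dimmer VIM probe set, a bound; 3.63% of all) and 0 lower (2.17%). In CD133- cells it had 1 higher (the brighter VIM probe set; 2.86%) and 2 lower (KRT7 and KRT8; 2.76%). The CD133 comparison in E+ cells had 1 higher (the brighter VIM probe set; 4.61%) and 2 lower (KRT7 and the brightest KRT10 probe set; 3.53%), and in E- cells 2 higher (the dimmer VIM probe set and KRT8; 7.12%) and 0 lower (4.15%). VIM was therefore past 2-fold with both of its probe sets, but each in different pairs. Where the brighter VIM probe set passed, the dimmer one had both arrays at the floor and so no ratio. Without a floor its log2 ratios were 2.19 and 2.67 for E-cadherin in CD133+ and CD133- cells. For CD133 they were 2.38 and 1.91 in E+ and E- cells, on signals below the floor except in E-CD133+ cells.

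**Figure D2:**
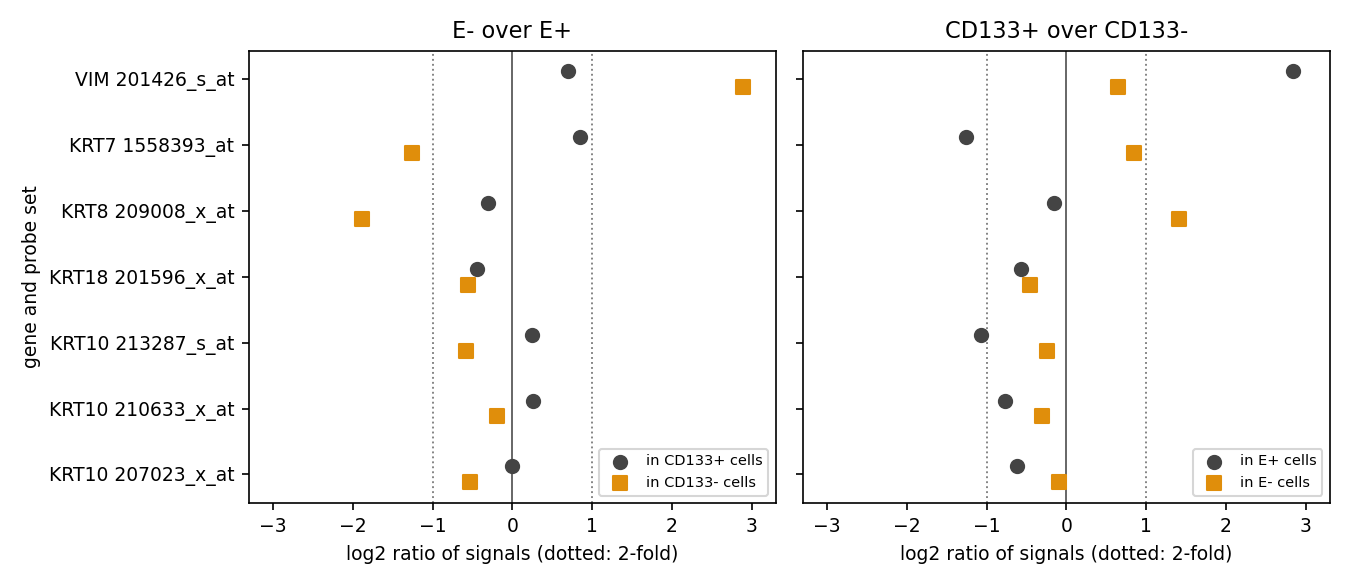
Log2 ratio of the signals for the 7 member probe sets above the floor on all 4 arrays, E- over E+ on the left and CD133+ over CD133- on the right, with a circle and a square for the 2 pairs of each comparison and dotted lines at 2-fold. VIM lay at 2.89 in CD133- cells and 0.70 in CD133+ cells on the left, and KRT8 at -1.88 and -0.30.

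Over the 7 member probe sets above the floor on all 4 arrays the median log2 ratio was 0.25 and -0.55 for E-cadherin in CD133+ and CD133- cells, against 0.01 and -0.02 over 22798 probe sets. For CD133 it was -0.62 in E+ cells and -0.09 in E- cells, against -0.02 and 0.0. The 7 come from 5 genes, 3 of them being KRT10 probe sets, and are not replicates. In each pair the median was the value of a KRT10 or the KRT18 probe set, so it does not describe VIM, KRT7 or KRT8. The E-cadherin groups did not overlap for 1 member that was higher in E- cells (the brighter VIM probe set; 13.5% of all) and 1 that was lower (KRT8; 13.7%). The CD133 groups did not overlap for 0 members higher in CD133+ cells (24% of all) and 4 lower, the KRT18 and the 3 KRT10 probe sets (25.5%). VIM moved from the E-cadherin to the CD133 side of this count with quantile scaling or equal medians, its 2 closest arrays being 12447.9 and 12937.9. The median of all probe sets lay at -0.16 with equal medians for E-cadherin in CD133+ cells and within 0.08 of 0 in the other pairs.

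**Figure D3:**
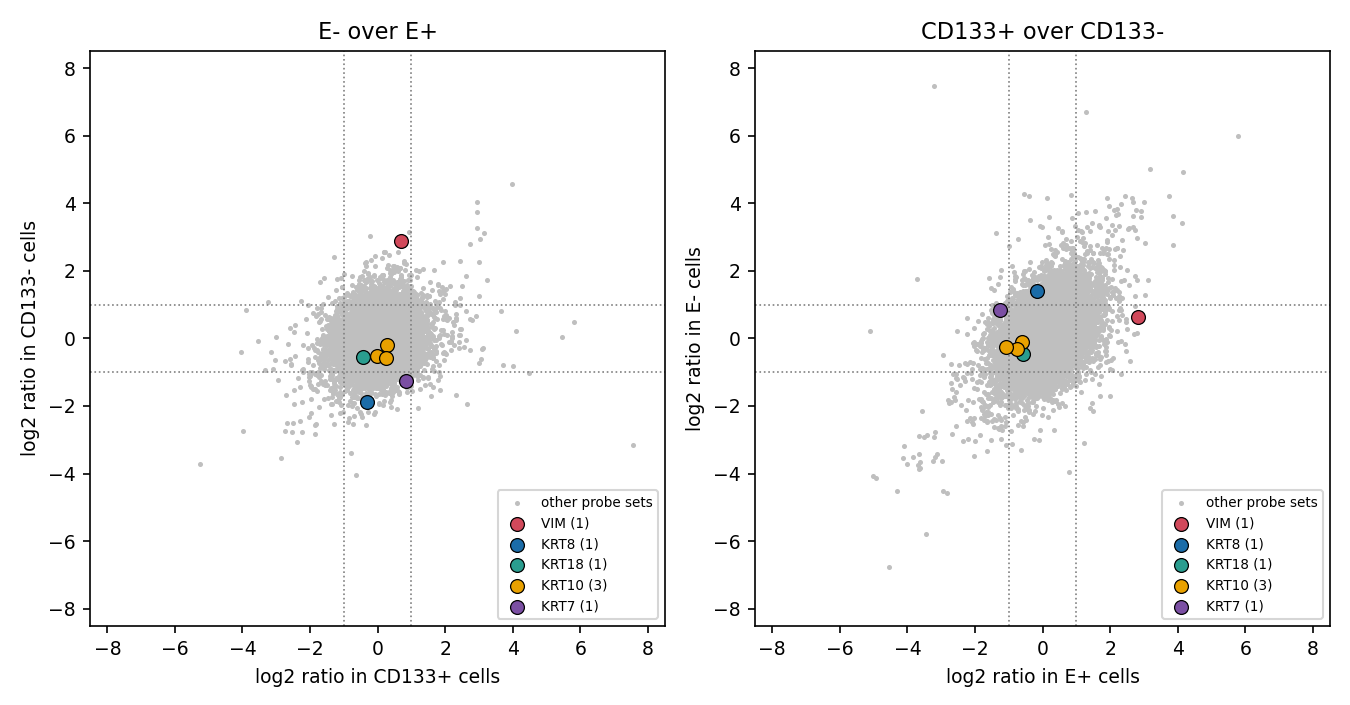
Log2 ratios of the 22798 probe sets above the floor on all 4 arrays (grey) and of the 7 members (coloured), with E- over E+ on the left and CD133+ over CD133- on the right, and the 2 pairs on the axes. VIM lay at 0.70 and 2.89 in the left panel, KRT8 at -0.30 and -1.88, and neither reached the corner outside both dotted 2-fold lines.

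An additive limma fit of both markers on all 4 arrays, with 1 residual degree of freedom and Benjamini-Hochberg adjustment over 32552 probe sets, called 0.108% of probe sets for E-cadherin and 2.02% for CD133 and no member. The brighter VIM probe set had a log2 difference of 1.80 (SE 0.46) for E-cadherin, limma adjusted p = 0.318, and of 1.74 (SE 0.46) for CD133, limma adjusted p = 0.108. KRT8 had -1.09 (SE 0.38) for E-cadherin, limma adjusted p = 0.525. At an unadjusted p under 0.05 limma gave 2 of the 8 members for E-cadherin, against 7.22% of all probe sets, and 1 for CD133, against 16%. The additive fit takes one E-cadherin effect for both CD133 states, which differed by 2.20 for VIM. Its only residual is this departure from additivity, which limma moderates over all probe sets. The SE and p therefore do not measure the spread between replicates.

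One pattern among the member keratins was noted after the values were seen. The 6 member keratin probe sets above the floor on 4 arrays (KRT7, KRT8, KRT18 and 3 of KRT10) were highest on the E+CD133- array, where 26.5% of all such probe sets were highest, and VIM was lowest there, as were 24.2%. The 6 probe sets of 4 genes are not independent, and KRT8 was 1.12-fold above its next array. The other keratin probe sets above the floor on 4 arrays, those of KRT78 and KRT9, were lowest on that array. For the members the order held under no, quantile and equal-median scaling, and 5 of the 6 kept it with the floor at the 65th percentile, KRT7 being the exception.

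The remaining keratins were mostly below the floor. Of 37 other keratin genes with 43 probe sets, 29 were below it on all 4 arrays and 2, KRT78 and KRT9, were above it on all 4. Their highest signal was 158 and 0 were called in either comparison. The shares called over 32552 probe sets, for this and the lists below, were 0.384% higher and 0.402% lower for E-cadherin. For CD133 they were 1.85% and 0.952%. KRT78 read 85.2, 157.9, 66.8 and 106.8 and KRT9 96.8, 110.0, 74.8 and 114.0, both lowest in E+CD133- cells and near the floor.

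Among 11 other cytoplasmic and lens genes, 9 were above the floor on at least 1 array, GFAP and NEFM being below it. Of the 11 probe sets of these genes 1 was called, higher in E- cells (0.384% of all). It was that of SYNM, a large chain that links filaments to the membrane. SYNM read 130.6 in E+CD133+, 495.3 in E-CD133+, 148.7 in E+CD133- and 393.9 in E-CD133- cells. Both E- arrays lay above both E+ arrays, by 3.79-fold in CD133+ cells (log2 ratio 1.92) and 2.65-fold in CD133- cells (log2 ratio 1.40). The call was lost at a 3-fold threshold, and no single array stood far below the others as for VIM. NEFH and NEFL are named after their values were seen. The brighter probe set of NEFH, a neurofilament chain, read 8012.9, 7356.9, 14495.9 and 16229.7, lower in CD133+ cells by 1.81-fold in E+ and 2.21-fold in E- cells, and the other NEFH probe set gave the same order by 1.82- and 2.17-fold. The brighter NEFL probe set read 171.4, 496.7, 159.6 and 109.6, highest on the E-CD133+ array, whereas the other read 40.4, 59.4, 91.9 and 46.2 and exceeded the floor on the E+CD133- array alone.

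The nuclear lamins had 8 probe sets of LMNA, LMNB1 and LMNB2 above the floor on at least 1 array and 0 called. Of 7 plakin and linker genes, some of which tie filaments to junctions, PLEC was below the floor. Among their 18 probe sets above it on at least 1 array, 3 of DSP and EPPK1 were called lower in E- cells (0.402% of all). DSP encodes desmoplakin, which anchors keratins at desmosomes. Its brightest probe set read 3656.5 in E+CD133+, 505.2 in E-CD133+, 8211.7 in E+CD133- and 705.4 in E-CD133- cells. It was lower in E- cells by 7.24-fold in CD133+ (log2 ratio -2.86) and 11.6-fold in CD133- cells (log2 ratio -3.54), and like KRT8, KRT18 and KRT10 it was highest on the E+CD133- array. EPPK1, epiplakin, a keratin-binding plakin, was called on 2 probe sets, one reading 828.3, 309.4, 593.6 and 273.9 and the other 643.8, 253.4, 534.7 and 249.7, at 2.68- and 2.17-fold and 2.54- and 2.14-fold lower, and both calls were lost at a 3-fold threshold. Another EPPK1 probe set was 1.44- and 1.67-fold lower, and the dimmest read 42.7, 70.8, 12.1 and 6.89, at least 1.32-fold higher in E- cells of the CD133+ pair. PPL, periplakin, named after its values were seen, read 412.7, 372.2, 465.1 and 201.1, low on the E-CD133- array as KRT8 was.

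**Figure D4:**
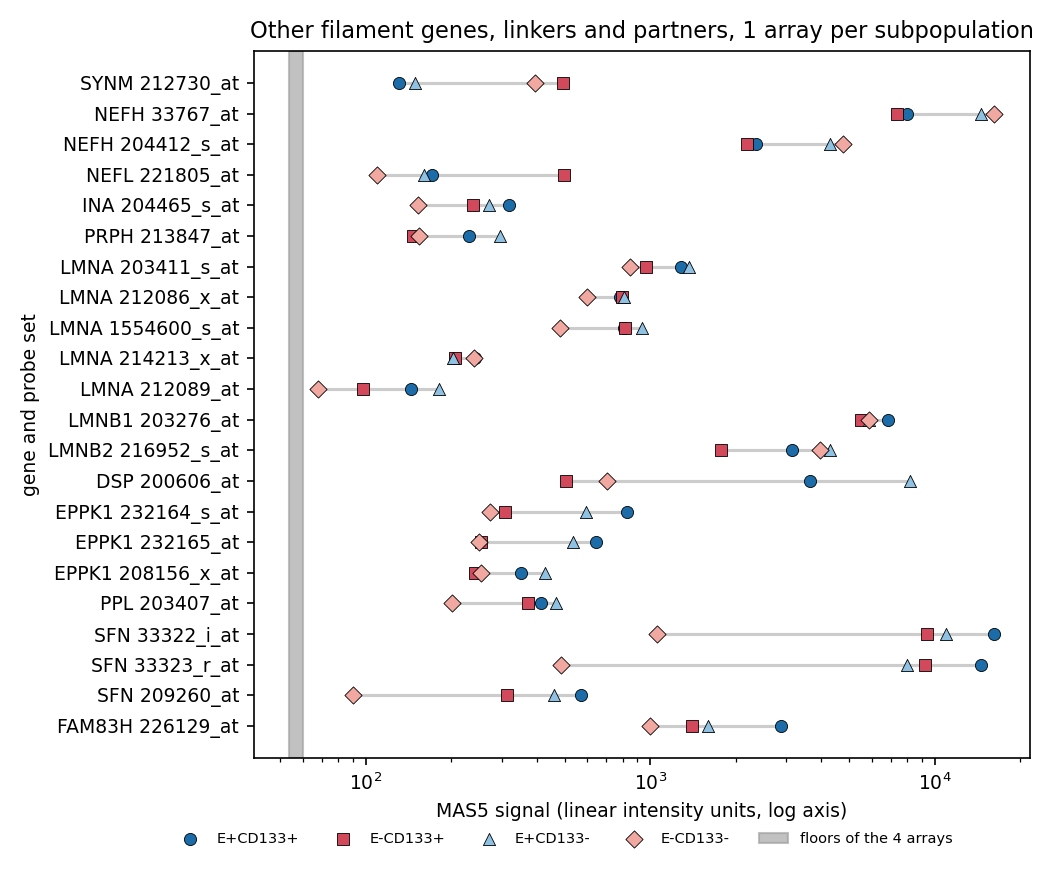
MAS5 signal (linear intensity units, log axis) on each array for 22 probe sets of other filament genes, lamins, linkers and partners, with the grey band marking the floors. DSP was 505.2 and 705.4 on the E- arrays against 3656.5 and 8211.7 on the E+ arrays, and SYNM had the opposite order.

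Among chaperones, kinases and other partners of the filaments, 12 genes were analysed and 0 of their 22 probe sets above the floor on at least 1 array were called. SFN, the 14-3-3 protein that binds keratins, is named after its values were seen. The brightest SFN probe set read 16198.6, 9381.8, 10963.9 and 1054.5, lower in E- cells by 1.73-fold in CD133+ and 10.4-fold in CD133- cells. The E-CD133- array was low for SFN, as for KRT8.

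Of 16 transcription factors analysed that are known to act on these genes, 12 were above the floor on at least 1 array, SNAI2, ZEB2, POU3F2 and SOX11 being below it. Of their 23 probe sets above the floor on at least 1 array, 3 were called higher in E- cells (0.384% of all) and 0 lower (0.402%). All 3 were of ZEB1, which represses epithelial genes, so they come from 1 gene. The brightest ZEB1 probe set read 168.0 in E+CD133+, 1300.7 in E-CD133+, 64.8 in E+CD133- and 1055.6 in E-CD133- cells. It was higher in E- cells by 7.74-fold in CD133+ (log2 ratio 2.95) and 16.3-fold in CD133- cells (log2 ratio 4.03). Like VIM it was lowest in E+CD133- cells, but its E+CD133+ value lay far below both E- values. The E+CD133- value lay close to the floor. At a 65th percentile floor its E-cadherin log2 ratio in CD133- cells became 2.82. Its CD133 ratio in E+ cells went from 1.37 to 0.17. The other called ZEB1 probe sets rested on bounds in CD133- cells, the dimmer of them also in CD133+ cells. Another ZEB1 probe set, not called, read 30.3, 84.4, 3.41 and 58.6, with both E+ arrays below the floor. With the floor at the 65th percentile 1 of the 3 ZEB1 calls was left. TFAP2A, which acts on keratin genes, was the 1 called for CD133 (1.85% of all). It read 164.2, 505.6, 65.5 and 88.5, higher in CD133+ cells by 2.51-fold in E+ and 5.71-fold in E- cells. This call was lost with the floor at the 65th percentile.

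The 3 genes whose pattern over the 4 arrays came nearest to that of VIM, among 14166 genes, were ZXDB, TLE4 and DUSP6, with root mean square log2 differences of 0.35, 0.35 and 0.36. ZXDB read 1074.8, 1379.6, 209.6 and 856.2, TLE4 541.4, 1193.2, 112.8 and 457.9, and DUSP6 8370.8, 13578.1, 1725.7 and 6327.9. Each was highest in E-CD133+ and lowest in E+CD133- cells, which the choice by likeness to VIM on these arrays favours. For all 3 the CD133 groups did not overlap and the E-cadherin groups did, the reverse of the brighter VIM probe set without further scaling. Unlike VIM, TLE4 was called in both comparisons and DUSP6 for CD133.

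Of the sorted markers, the brighter CDH1 probe set (E-cadherin) read 5548.2, 347.0, 3545.7 and 527.8, lower in E- cells by 16.0- and 6.72-fold. The CD133 gene PROM1 was below the floor on all 4 arrays (4.79 to 29.7), so these arrays give no check of the CD133 sort. Of 5 epithelial markers, 3 were above the floor, CLDN4 and ESRP1 being below it. The summed brightest signals ran from 4409.8 in E-CD133- to 17941.8 in E+CD133+ cells. This sum was mostly EPCAM and the sorted marker CDH1, so its E-cadherin order was partly set by the sort. ELF3 read 50.6, 59.4, 506.5 and 94.3, highest in E+CD133- cells and below the floor on both CD133+ arrays. The 4 lung lineage markers summed to 351.6 to 562.4. In that sum NKX2-1 (215.3, 116.6, 70.4 and 83.1) was higher in CD133+ cells and SFTPB (130.1, 167.8, 263.4 and 250.1) lower. Such sums mix probe sets of unlike sensitivity, so the lists are not compared by level. Fibroblast markers summed to 31416.2, 22181.6, 24448.3 and 17631.9, mostly COL3A1, with the summed probe sets of PDGFRB and THY1 below the floor. COL1A2 read 65.1, 434.7, 18.8 and 18.6, highest on the E-CD133+ array as VIM was. COL1A1 and COL3A1 were instead highest on the E+CD133+ array and lowest on the E-CD133- array. COL1A1 read 2086.5, 1935.3, 1636.1 and 1613.6, and COL3A1 read 29221.1, 19767.0, 22769.1 and 15937.6. Of the leukocyte markers, 2 of 3 analysed were above the floor, CD14 being below it, and PTPRC read 1246.1, 1101.9, 345.6 and 505.0, lowest in E+CD133- cells as VIM was, whereas CD3E read 29.2, 59.4, 62.5 and 19.2. Muscle markers summed to 65.3, 247.6, 98.0 and 144.5, highest on the E-CD133+ array, with 2 of 3 above the floor (DES and ACTG2) and MYH11 below it. Of the endothelial markers 1 of 3 was above the floor, with a sum of 142.1 to 185.6, and CDH5 and VWF were below it. The part of other cell types in the VIM and keratin differences was not tested.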

How the data were processed

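For each of 4 one-colour arrays the authors deposited linear intensity values by probe set. The submitters' processing notes name MAS5; its version, like any scan batch, is not stated in the sources used here. The mean intensity after leaving out 2% of probe sets at each end was 500.1 on every array, so the values had been scaled within arrays, and no further scaling was applied. Members were found by annotation symbol. The 9 symbols matched RefSeq (GRCh38.p14) by gene ID. Members and gene lists were chosen with earlier results of these data known. Genes outside the members were named when a listed probe set was called, as the sorted markers, or as the 3 genes nearest to a member ranging over at least 2 on the log2 scale. Others are marked as chosen after their values were seen.

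Log2 ratios of floored intensity were taken within matched pairs. A probe set was called when both pairs passed 2-fold in one direction, over the 32552 probe sets above the floor (50th percentile) on at least 1 array. A ratio with 1 array at the floor is a bound. No test across replicates was possible. Alternatives were quantile scaling, equal medians, other floors and fold thresholds, other ways to treat probe sets, and limma. The calculation was also run on simulated data with planted E-cadherin effects equal in both CD133 states, unlike those of VIM and KRT8 here. Ratios were computed with pandas 2.3.3 and numpy 2.4.6 in Python 3.11.15, plots drawn with matplotlib 3.10.9, and limma 3.58.1 run in R 4.3.3.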

Additional observations from a re-analysis of the deposited data

Results flagged for a closer look

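For 3 member probe sets the E-cadherin ratio and for 2 the CD133 ratio pointed in opposite directions in the 2 pairs, and with 1 array per subpopulation these differences were not tested. The brightest KRT7 probe set had an E-cadherin log2 ratio in CD133- cells minus that in CD133+ cells of -2.11, and a CD133 ratio in E- cells minus that in E+ cells of 2.11, on signals near the floor. For KRT8 the CD133 difference was 1.58. For KRT10 the E-cadherin difference was -0.82 on the brightest probe set and -0.45 on the second.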

How the results depend on the processing

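No member was called in either comparison. This count stayed at 0 with quantile scaling, equal array medians, the floor at the 65th percentile and limma. It was also 0 at a 3-fold threshold, with 1 brightest probe set per gene, and without shared probe sets, which left KRT7 alone. These last settings are stricter or use a part of the same probe sets, so they could not raise the count above 0. Without a floor it became 2 for E-cadherin (KRT23 and the dimmer VIM probe set higher) and 3 for CD133 (the dimmer VIM probe set and a dim KRT7 probe set higher, KRT23 lower), on signals that are below the floor here apart from that of the dimmer VIM probe set in E-CD133+ cells. It became 1 and 1 with the floor at the 25th percentile (the dimmer VIM probe set), 1 and 1 at 1.5-fold (the brighter VIM probe set, higher in E- and in CD133+ cells), and 1 and 1 with the mean over the probe sets of a gene (VIM). The share of all probe sets called was not computed under these settings, so whether these counts exceed the general rate is not known. Of the 3 ZEB1 probe sets called higher in E- cells, 1 was left with the floor at the 65th percentile. TFAP2A was not called for CD133 with that floor, at 3-fold or with the mean over probe sets. SYNM and EPPK1 were not called at 3-fold, and the plakin and linker calls came to 1 with the mean over probe sets, against 3. The called probe sets of DSP, EPPK1, SYNM and ZEB1 did not reverse direction under the other scalings and floors. Direction was not followed for TFAP2A or the other called genes. Signals near the floor limit what can be said of KRT7, KRT19, KRT23, KRT80 and NES. The labels give no replicate numbers by which arrays could be paired, and the pairs compared match on the other sorted marker.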

Other observations

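SOX2, a progenitor transcription factor on the list of regulators, was not called in either comparison. Its brightest probe set read 88.3 in E+CD133+ cells, 5005.6 in E-CD133+ cells, 3021.4 in E+CD133- cells and 4262.4 in E-CD133- cells. The E+CD133+ array alone was low, so the E-cadherin-low signal was 56.7-fold higher in CD133+ cells and 1.41-fold higher in CD133- cells. A second SOX2 probe set read 42.0, 403.8, 323.8 and 492.9, with the E+CD133+ array below the floor, so its ratios were at least 7.52-fold in CD133+ cells and 1.52-fold in CD133- cells. This gene was chosen after its values were seen, and NES, a gene that SOX2 can act on, stayed below the floor on all 4 arrays.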
